A study of Sus scrofa with 13 samples.

Results

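The immediate early genes are 9 genes, FOS, JUN, JUNB, ATF3, EGR1, MYC, IER2, BTG2 and ZFP36, taken by symbol from the 25322 gene identifiers counted in longissimus lumborum, the main muscle of the loin. All 9 were present in the count tables of both breeds and all 9 passed the filter on low counts. The 13 pigs were unrelated females of 6 months, kept and fed alike, and muscle was taken into RNAlater right after slaughter. They formed 4 groups, namely Hampshire pigs of high (n = 3) or low (n = 3) loin weight and Pietrain pigs of high (n = 4) or low (n = 3) loin weight. No pig was treated, and the groups were chosen for the trait, so each group stands for a few animals at the ends of 1 breed's range. Pigs are called here by breed, loin weight group and number.

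Immediate early genes are transcribed within minutes of a stimulus from factors that already sit in the cell, mainly the serum response factor with its ETS partners and CREB, which kinases of the MAPK cascades switch on. Their mRNAs are short-lived, so a burst of transcription rises and fades quickly. In skeletal muscle they are known to respond to contraction, stretch, injury and handling. The products include AP-1 factors (FOS, JUN, JUNB and the related ATF3), other transcription factors (EGR1, MYC), a nuclear protein of less certain function (IER2), a brake on cell division (BTG2) and a protein that speeds the decay of mRNAs with AU-rich tails (ZFP36).

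Total counts per pig ranged from 11312755 to 20134612, and levels are given as CPM, the count relative to the pig's total, scaled by the TMM method over all pigs. The 6 matched skeletal muscle markers (ACTA1, CKM, MYLPF, TNNC2, MYH1 and NEB) were present in every pig and together summed to between 110205 and 271718 CPM. All 15 pairs of pigs within a group differed by far more than sampling noise, with a chi-square per degree of freedom of at least 23.3. The labels name no batch. Each breed has its own count table, so breed cannot be told apart from whatever else differed between the tables. Statistics measure the spread between these pigs.

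FOS (ENSSSCG00000002383, chromosome 7, 104293657 to 104297121 on Sscrofa10.2, as are all positions here), the AP-1 partner that pairs with a JUN protein, had the widest range. Its level was 105, 262 and 120 CPM in Hampshire high pigs 8, 9 and 10, and 120, 279 and 59.9 CPM in Hampshire low pigs 1, 2 and 3. It was 53.0, 63.8, 237 and 4.65 CPM in Pietrain high pigs 1, 2, 6 and 7, and 1025, 30.7 and 14.7 CPM in Pietrain low pigs 3, 5 and 8. The highest and the lowest pig were thus both Pietrain and differed 221-fold, while the Hampshire pigs all lay between them. By group median the order was Hampshire high, Hampshire low, Pietrain high and Pietrain low, and each neighbouring pair of groups overlapped.

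JUN (ENSSSCG00000030839, chromosome 6, 141230121 to 141233597), the other AP-1 partner, was the steadiest of the 9. It stood at 201, 188 and 146 CPM in Hampshire high pigs 8, 9 and 10 and at 233, 363 and 265 CPM in Hampshire low pigs 1, 2 and 3, so that these groups did not overlap. In Pietrain it was 143, 197, 182 and 92.2 CPM in high pigs 1, 2, 6 and 7 and 451, 117 and 154 CPM in low pigs 3, 5 and 8, with overlap. Hampshire low had the highest median, and the other groups had medians between 154 and 188 CPM with overlapping pigs.

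JUNB (ENSSSCG00000013735, chromosome 2, 66505144 to 66507024), a JUN relative that in many settings acts more weakly than JUN, separated the breeds more than the loin weight groups. Hampshire pigs had 18, 18.6 and 13.7 CPM (high 8, 9 and 10) and 10.5, 24.4 and 13.0 CPM (low 1, 2 and 3). Pietrain pigs had 3.40, 3.64, 9.67 and 3.20 CPM (high 1, 2, 6 and 7) and 19.1, 2.06 and 2.22 CPM (low 3, 5 and 8). Pietrain low pig 3 was the only Pietrain pig within the Hampshire range.

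IER2 (ENSSSCG00000013753, without a position in the files) showed a like pattern at low counts. Hampshire high pigs 8, 9 and 10 had 4.09, 5.27 and 2.81 CPM and Hampshire low pigs 1, 2 and 3 had 1.47, 4.08 and 3.50 CPM. Pietrain high pigs 1, 2, 6 and 7 had 0.362, 1.61, 1.56 and 1.10 CPM and Pietrain low pigs 3, 5 and 8 had 3.53, 0.396 and 1.48 CPM. In the newer RefSeq annotation of Sscrofa11.1 IER2 and JUNB lie on the same chromosome with 18 protein-coding genes between them.

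ATF3 (ENSSSCG00000015595, chromosome 9, 143690556 to 143703872), an ATF family factor induced by many kinds of cell stress, was lowest in the Hampshire high pigs. These had 58.8, 152 and 16.6 CPM (pigs 8, 9 and 10) against 146, 394 and 404 CPM in Hampshire low pigs 1, 2 and 3. Only high pig 9 reached the level of a low pig. Pietrain high pigs 1, 2, 6 and 7 had 182, 744, 654 and 81.3 CPM, and Pietrain low pigs 3, 5 and 8 had 588, 86.0 and 215 CPM, which span the same range.

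EGR1 (ENSSSCG00000014336, chromosome 2, 146156065 to 146160020), a zinc finger factor and a classical serum response gene, ran the other way in Hampshire. High pigs 8, 9 and 10 had 21.2, 18.5 and 25.8 CPM, all above the 2.45, 15.7 and 11.8 CPM of low pigs 1, 2 and 3. In Pietrain it was 2.03, 16.1, 70.0 and 1.3 CPM in high pigs 1, 2, 6 and 7 and 85.4, 8.07 and 7.13 CPM in low pigs 3, 5 and 8. Hampshire high had the highest median and the smallest spread, with values inside those of Pietrain.

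BTG2 (ENSSSCG00000028322, chromosome 9, 70327445 to 70331400) had 197, 115 and 76.7 CPM in Hampshire high pigs 8, 9 and 10 and 214, 445 and 173 CPM in Hampshire low pigs 1, 2 and 3. Pietrain high pigs 1, 2, 6 and 7 had 325, 823, 1253 and 27.6 CPM and Pietrain low pigs 3, 5 and 8 had 1354, 128 and 253 CPM. Pietrain high had the highest median and also held the lowest pig of all 13.

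MYC (ENSSSCG00000005965, chromosome 4, 12778444 to 12783481), a driver of growth and ribosome production, was low in every pig, between 2.5 CPM in Pietrain high pig 7 and 22.7 CPM in Pietrain low pig 3. Group medians ran from 4.56 CPM in Hampshire high to 10.0 CPM in Hampshire low, and all groups overlapped. The gene that the deposited tables name ZFP36 (ENSSSCG00000010708, chromosome 14, 143677755 to 143680316) ranged from 17.2 CPM in Pietrain high pig 7 to 125 CPM in Pietrain low pig 3, with group medians of 42.8 to 60.3 CPM. Its identity is uncertain, because the RefSeq table of Sscrofa11.1 places ZFP36 on another chromosome.

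**Figure D1:**
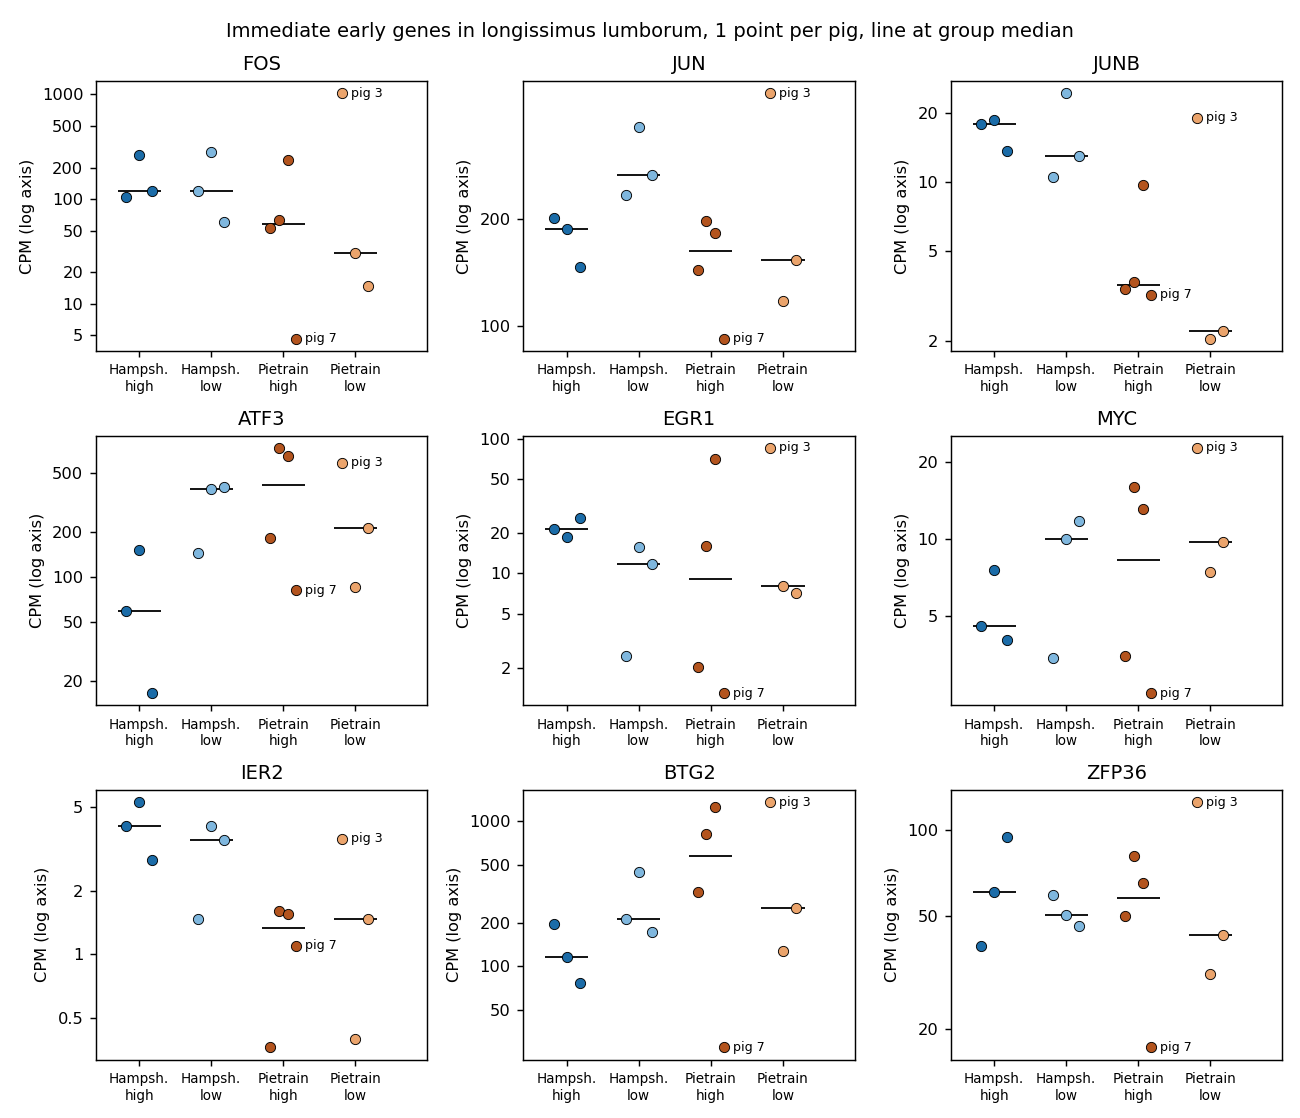
Level of each of the 9 genes in CPM (log axis, each panel with its own scale) in the 4 groups, with 1 point per pig and a line at the group median. Pietrain low pig 3 is the highest pig for 6 of the genes and Pietrain high pig 7 the lowest for 6.

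The same 2 pigs stood at the ends of most of these ranges. Pietrain low pig 3 had the highest level of 6 of the 9 genes and was among the top 3 pigs for 8. Pietrain high pig 7 had the lowest level of 6 and was among the bottom 3 for all 9. Thus 1 end was a low and the other a high loin weight pig of the same breed. Pig 7 was also the most deeply sequenced (20134612 counts) and pig 3 the least (11312755 counts). For other cell types, the 8 matched smooth muscle and pericyte markers summed to 145 CPM in pig 7, the lowest of 13, and to 264 CPM in pig 3. The 11 matched macrophage markers summed to 65.9 CPM in pig 7 and 33.9 CPM in pig 3, ranks 6 and 10 of 13. In pigs 7 and 3, in this order, the fibroblast sum was 821 and 1595 CPM and the endothelial sum 168 and 253 CPM. The skeletal muscle sum was 178044 and 127142 CPM and the blood sum 157 and 166 CPM. The adipocyte sum was 5.65 and 6.24 CPM and the satellite cell and myoblast sum 38.7 and 37.6 CPM. The part of depth or of cell makeup in the levels of the early genes was not tested. In bulk muscle, fewer cells of a type and less RNA per cell cannot be told apart.

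**Figure D2:**
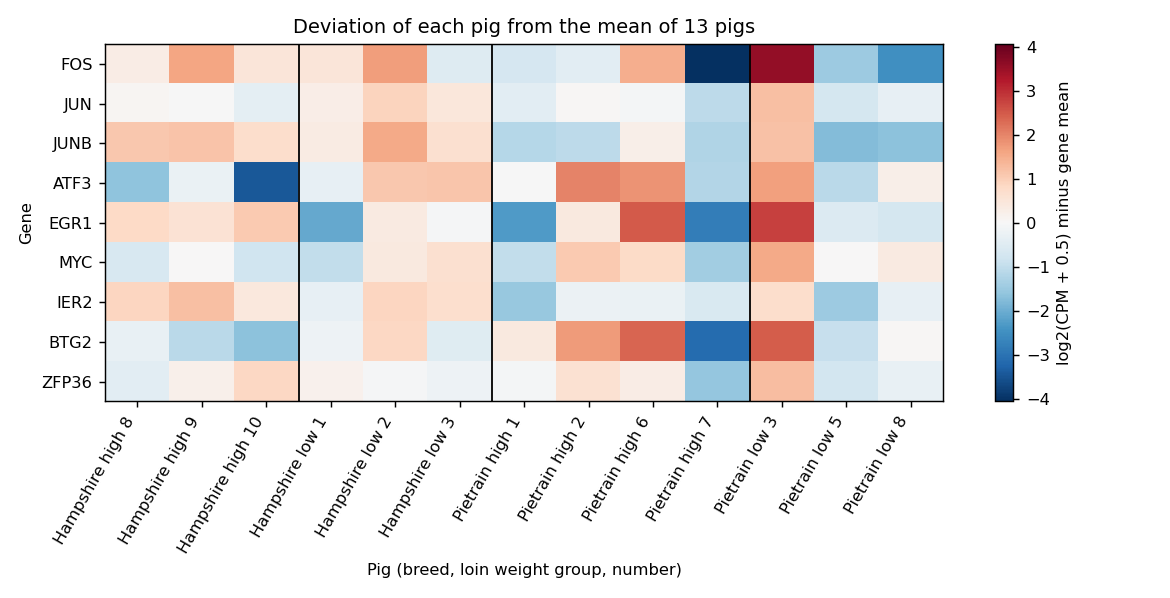
Deviation of each pig (columns, ordered by group) from the mean of 13 pigs in log2(CPM + 0.5) for each gene (rows), red for higher and blue for lower. The Pietrain low pig 3 column is red for all 9 genes and the Pietrain high pig 7 column blue for all 9, while the Hampshire columns hold both colours or paler shades.

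The spread between pigs of the same group was large for these genes compared with the transcriptome. The SD of log2(CPM + 0.5) around the group means, pooled over the 4 groups, was 2.12 for FOS, which ranked 17 of 12831 genes from the highest. EGR1 followed with 1.82 (rank 36), BTG2 with 1.70 (rank 52) and ATF3 with 1.38 (rank 101). JUNB and MYC both had 0.94, ZFP36 0.81, IER2 0.72 and JUN 0.59. The median over the 9 genes was 0.94 against 0.34 over all genes tested, and 8 of the 9 exceeded the 90th percentile of all genes (0.60). JUN lay just below it. The SD was higher within Pietrain than within Hampshire for all 9, which was also true of 67.4% of all genes. FOS had an SD of 0.93 in Hampshire and 2.72 in Pietrain, and BTG2 of 0.70 and 2.20. In a setting added after seeing the data, without Pietrain low pig 3 and Pietrain high pig 7, 6 of the 9 exceeded the 90th percentile and the median was 0.79 against 0.31 over all genes. FOS then ranked 274 and JUN, with 0.27, fell below the median.

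**Figure D3:**
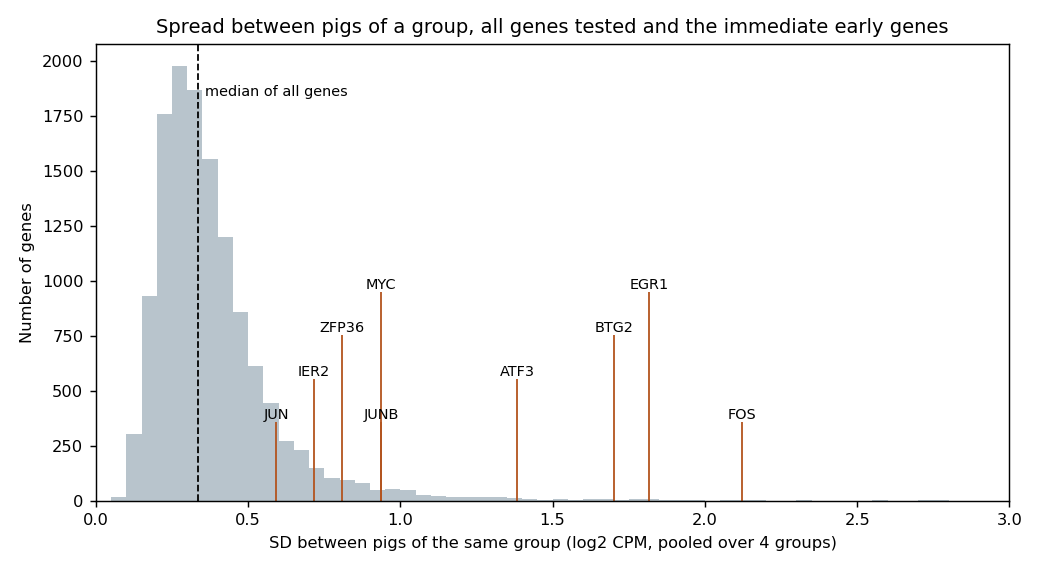
Histogram of the SD between pigs of the same group (log2 CPM, pooled over the 4 groups) for 12831 genes, with the 9 immediate early genes as marked lines and the median of all genes dashed. FOS, EGR1, BTG2 and ATF3 lie far in the right tail, and JUN lies at the edge of the bulk.

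The genes also moved together from pig to pig. Over 13 pigs all 36 pairs of the 9 genes had a positive Pearson correlation of log2(CPM + 0.5), with a median r of 0.59. Of the 36, 17 passed an adjusted p of 0.05 (permutation test, Benjamini-Hochberg adjustment over the 36 pairs) and 13 did so by Spearman's rho. Of these 17, 15 kept a positive sign in both breeds. The r and the permutations over 13 pigs did not keep the 4 groups apart, so differences between groups enter both. The breeds differed in the size of r, which was higher in Pietrain for 32 of the 36 pairs. In the 7 Pietrain pigs all 36 were positive with a median r of 0.81, and 20 passed (exact permutation test). In the 6 Hampshire pigs 27 were positive with a median of 0.21, and 0 passed after adjustment. The difference between the breeds in r was not tested. Without the 2 pigs named above, 29 of 36 pairs were positive over 11 pigs and the median r was 0.27, so the median rested in part on them. Both are Pietrain pigs at opposite ends of most ranges. Their part in the higher r of Pietrain and in the pairs that passed there was not tested.

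Certain pairs kept their relation more than others. JUNB and IER2 had r = 0.866 (rho = 0.863) over 13 pigs, with a permutation p of 0.00016 and an adjusted p of 0.00576. Their r was 0.800 in Hampshire and 0.744 in Pietrain, and 0.875 without the 2 pigs farthest from the JUNB median. This pair passed in neither breed by itself (exact permutation test, adjusted p = 0.592 in Hampshire and 0.0801 in Pietrain). ATF3 and MYC had r = 0.768 (rho = 0.841, permutation p = 0.002, adjusted p = 0.012), with 0.759 in Hampshire, 0.821 in Pietrain and 0.786 without the 2 pigs farthest from the ATF3 median. ATF3 and BTG2 had r = 0.781 (rho = 0.802, permutation p = 0.00158, adjusted p = 0.0114), with 0.712, 0.925 and 0.775 in the same order. The AP-1 partners FOS and JUN had r = 0.803 (rho = 0.681, permutation p = 0.00114, adjusted p = 0.0114), with 0.186 in Hampshire, 0.903 in Pietrain and 0.539 without the 2 pigs farthest from the FOS median. BTG2 and ZFP36 had the highest r in Pietrain (0.958) and a negative one in Hampshire (-0.654). JUNB and ATF3 hardly covaried over 13 pigs when the groups were ignored (r = 0.0439, rho = 0.0879, permutation p = 0.888, adjusted p = 0.888, r = -0.0481 without the 2 pigs farthest from the JUNB median). Their r was 0.237 in Hampshire and 0.673 in Pietrain. With the group means removed, r was 0.63 for JUNB and ATF3, 0.75 for JUNB and IER2 and 0.90 for ATF3 and MYC. It was 0.79 for ATF3 and BTG2, 0.88 for FOS and JUN and 0.79 for BTG2 and ZFP36.

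**Figure D4:**
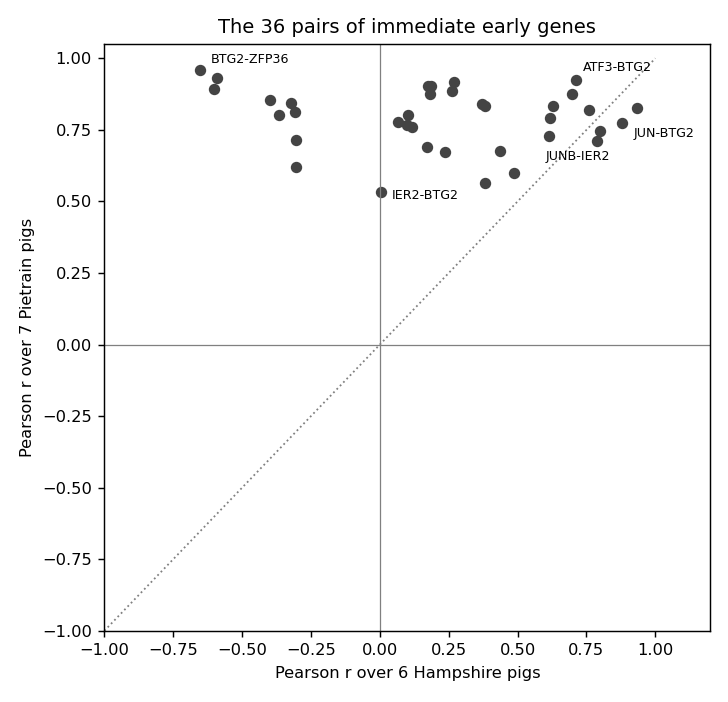
Pearson r of log2(CPM + 0.5) for the 36 pairs of immediate early genes over the 6 Hampshire pigs (horizontal axis) and the 7 Pietrain pigs (vertical axis), with the dotted line at equal r. All points lie above 0 on the vertical axis and 32 lie above the dotted line, while 9 lie left of 0.

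High and low loin weight were compared within Hampshire to ask whether muscle mass went with a different level of these genes. JUN was the only DEG among the 9, down-regulated in the high loin weight pigs by 0.69 on the log2 scale (SE 0.21, 1.61-fold lower), with an adjusted p of 0.0385 in edgeR's quasi-likelihood test. The group means were 179 ± 28.7 CPM in the high and 287 ± 67.7 CPM in the low pigs (SD, 3 pigs each). Every high pig was below every low pig. The share called over all 12228 genes was 26.6%, and 14.6% were called lower. The number called fell from 3256 to between 1224 and 3049 when single pigs were left out. It was 1224 of 12492 genes without low pig 3, 1760 of 12544 without high pig 10 and 2091 of 12588 without high pig 9. These smaller fits also have less power, so the falls do not by themselves show dependence on certain pigs. JUN was not called without Hampshire high pig 9 (-0.76, edgeR adjusted p = 0.0709) or 10 (-0.57, 0.125), or without low pig 2 (-0.50, 0.125) or 3 (-0.75, 0.0840). Nor was it called with all 13 pigs in 1 fit (-0.69, 0.258).

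ATF3 had the largest difference, at a log2 fold change of -2.07 (SE 0.68), and missed the threshold (edgeR adjusted p = 0.0521). It passed with no filter on low counts, with at least 10 counts in every pig and with a gene length offset (edgeR adjusted p = 0.0265, 0.0360 and 0.0442). BTG2 stood at -1.10 (SE 0.41, edgeR adjusted p = 0.0741) and passed with no filter (0.0494) and with the length offset (0.0303). BTG2 did not pass with DESeq2 (adjusted p = 0.159), or in edgeR with DESeq2 size factors (0.0781), at least 10 counts (0.0503) or 1 fit (0.453). Leaving out single pigs, the edgeR adjusted p ran from 0.0236 to 0.145 for ATF3 and from 0.0331 to 0.247 for BTG2. EGR1 was at 1.13 (SE 0.51, edgeR adjusted p = 0.124), and its groups did not overlap. At an unadjusted p under 0.05 edgeR had 3 of the 9 (JUN, ATF3 and BTG2), against 41.2% of all genes. JUN and EGR1 were the 2 of 9 genes whose groups did not overlap, against 45.9% of all genes. For both the exact two-sided permutation p was 0.1, the smallest that 3 against 3 pigs allows. ATF3 and BTG2, whose groups overlapped, had an exact permutation p of 0.2. MYC had a log2 fold change of -0.65 (SE 0.43) and IER2 of 0.41 (SE 0.40). FOS (0.08, SE 0.53), JUNB (0.06, SE 0.30) and ZFP36 (0.32, SE 0.30) were near 0 and changed sign with the gene length offset. This offset removes a trend with gene length. Longer genes had lower log2 fold changes in Hampshire, with a rank correlation of -0.386 over 9945 genes, which are no independent replicates. The 9 genes had a median of 0.06 against 0.03 over all genes.

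Markers of several other cell types differed between these groups. The summed fibroblast markers (7 matched) ran from 1893 to 4952 CPM in the high and from 743 to 1613 CPM in the low pigs, and 4 of 7, COL1A2, COL3A1, DCN and FAP, were up-regulated. The summed macrophage markers (11 matched) ran from 167 to 242 CPM in the high and from 58.5 to 140 CPM in the low pigs, with 3 of 11 up-regulated. The endothelial sum (9 matched) was 290 to 342 CPM against 209 to 256 CPM, with 2 of 9 up-regulated. The smooth muscle and pericyte sum (8 matched) was 282 to 424 CPM against 203 to 274 CPM, and 2 of 8, ACTA2 and TAGLN, were up-regulated. The adipocyte sum (3 matched) was 13.8 to 47.7 CPM against 4.27 to 9.62 CPM, and 2 of 3, CIDEC and CIDEA, were up-regulated by 2.20 and 1.54. The high and low pigs did not overlap in any of these 5 sums. Each matched marker of the 5 lists was detected in every pig. Over all genes, 12% were called higher and 45.9% had groups that did not overlap. These shares are of single genes, not of sums. The blood, satellite cell and myoblast, and skeletal muscle sums overlapped between the high and low pigs. Of the tested markers, 0 of 4 blood and 0 of 5 satellite cell and myoblast markers were called. Of 6 skeletal muscle markers, 1 was up-regulated and 2 were down-regulated. The part of the cell type markers in the JUN, ATF3 and EGR1 values was not tested.

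In Pietrain, 0 of the 9 genes were DEGs, where 0% of 12065 genes were called by edgeR. At an unadjusted p under 0.05 edgeR had 398 genes, 3.3% of those tested, and none of the 9. DESeq2 called 1 gene, which is not among the 9. None of the 9 had groups that did not overlap, against 4.59% of all genes. FOS had a log2 fold change of -2.0 with an SE of 1.33 (edgeR adjusted p = 0.939), the mean of the low group being 357 ± 579 CPM (SD, n = 3) and that of the high group 89.7 ± 102 CPM (SD, n = 4). ATF3 stood at 0.50 (SE 0.76) and BTG2 at 0.07 (SE 1.00), and the other 6 genes lay between -0.63 and -0.30. The smallest exact permutation p that 4 against 3 pigs allow is 0.0571, and the smallest among the 9 was 0.4 (MYC).

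Pietrain low pig 3 set the sign of most of these values. Without it, FOS stood at 2.06, EGR1 at 1.62, JUNB at 1.28, ZFP36 at 0.58, IER2 at 0.34, JUN at 0.24 and MYC at 0.08, each a change of sign from below to above 0, and still 0 were called. The median SE of the 9 genes was 0.74 against 0.30 over all genes, so that a difference of the size seen for JUN in Hampshire was not detectable for most of them.

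The effect of loin weight was then compared between the breeds in 1 fit over 13 pigs. For 0 of the 9 genes did it differ at an adjusted p of 0.05, against 5.9% of 12831 genes, and 0 had an unadjusted p under 0.05, against 22.1%. ATF3 came nearest, with a difference of -2.54 in log2 fold change (SE 1.2, edgeR adjusted p = 0.230). For JUN the effects in this fit were -0.69 in Hampshire and -0.65 in Pietrain, with a difference of -0.04 (SE 0.56). The call of JUN in Hampshire alone therefore does not show a difference between breeds.

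**Figure D5:**
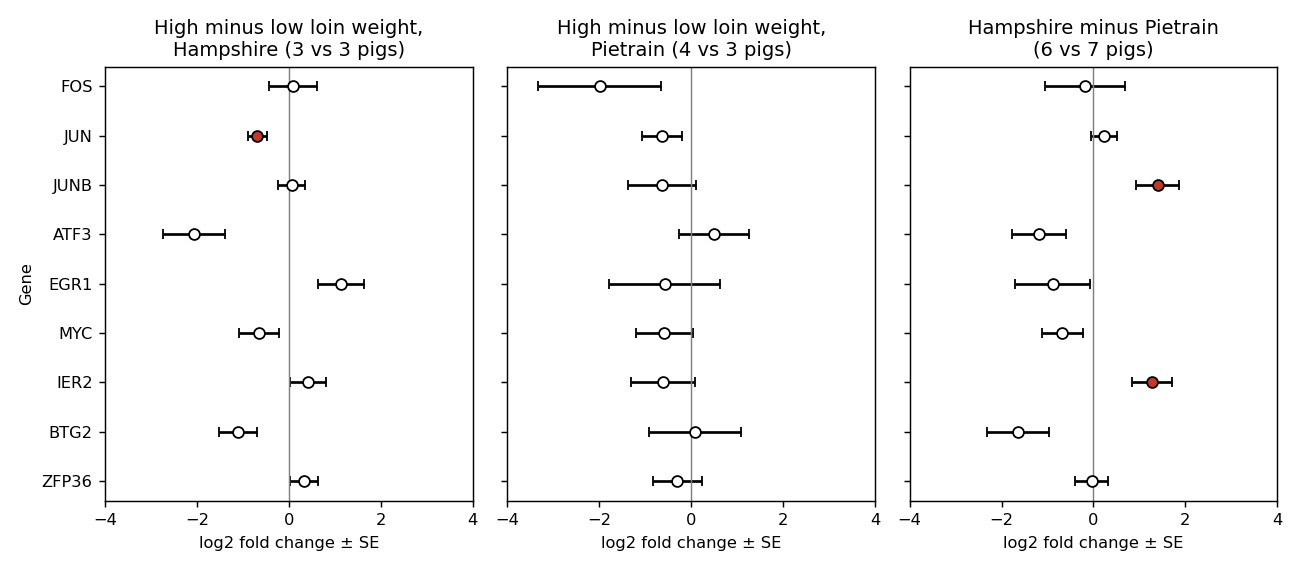
Log2 fold change with its SE (bars) from edgeR for high minus low loin weight in Hampshire and in Pietrain and for Hampshire minus Pietrain, with filled points for genes at an adjusted p under 0.05 and a fold of at least 1.2. JUN is filled in the Hampshire panel, none is filled in the Pietrain panel, and JUNB and IER2 are filled in the breed panel.

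Between the breeds, averaged over both loin weight groups, 2 of the 9 genes were DEGs, against 52.3% of 12831 genes. Of all 12831 genes, 25.4% were DEGs higher in Hampshire. JUNB was higher in Hampshire by 1.40 on the log2 scale (SE 0.47, 2.64-fold, edgeR adjusted p = 0.0226) and IER2 by 1.27 (SE 0.43, 2.42-fold, edgeR adjusted p = 0.0241). BTG2 lay at -1.64 (SE 0.68, edgeR adjusted p = 0.0561), ATF3 at -1.19 (SE 0.60, 0.109), EGR1 at -0.88 (SE 0.81, 0.378) and MYC at -0.68 (SE 0.45, 0.215). At an unadjusted p under 0.05 edgeR had 3 of the 9 (JUNB, IER2 and BTG2), against 58.5% of all genes. FOS, JUN and ZFP36 were within 0.24 of 0, and JUN turned to -0.18 with the gene length offset.

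Single pigs moved these calls. JUNB was not called without Hampshire low pig 2 (adjusted p = 0.0635) or Pietrain low pig 5 (0.0527), or with the length offset (0.98, 0.0850). IER2, which has no length in the files, was not called without Hampshire high pig 9 (adjusted p = 0.0641), Hampshire low pig 2 (0.0632) or Pietrain low pig 8 (0.0553). Without Pietrain low pig 3, 4 of the 9 were called, since FOS (1.84, edgeR adjusted p = 0.0409) and JUN (0.67, 0.0122) then were higher in Hampshire. BTG2 passed without Pietrain high pig 7 (-1.84, edgeR adjusted p = 0.00989) or low pig 5 (0.0335). Over the alternative settings that kept every pig, BTG2 lay between -2.07 and -0.55 (edgeR or DESeq2 adjusted p of 0.0188 to 0.0569). ATF3 passed without Hampshire high pig 9 (-1.71, 0.0399). Beside the breed values, 10 of 11 macrophage, 5 of 9 endothelial and 5 of 8 smooth muscle and pericyte markers were higher in Hampshire. Over all genes that share was 25.4%. In other lists 2 of 3 adipocyte, 1 of 7 fibroblast and 0 of 4 tested blood markers were higher. Of 5 satellite cell and myoblast markers, 3 were higher and 1 lower. The part of these markers in the JUNB and IER2 values was not tested.

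Genes that shared the pattern of the 9 were sought by averaging the 9 genes after removing group means and correlating this mean with 9084 genes over the 13 pigs. Among the closest were FAM46A (r = 0.965), COQ10B (0.949), DUSP1 (0.946) and ERF (0.939). DUSP1 encodes a phosphatase that switches MAP kinases off, ERF an ETS repressor and COQ10B a coenzyme Q binding protein. DUSP1 ran from 20.2 to 83.1 CPM in Pietrain high and from 125 to 291 CPM in Hampshire high pigs. In the low groups it ran from 49.8 to 244 CPM in Pietrain and from 70.7 to 178 CPM in Hampshire, so the breeds overlapped. Of the 9 genes themselves, JUN was closest to their mean (r = 0.949, the gene included in the mean) and IER2 and ZFP36 farthest (both 0.784).

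The wider early response was followed in lists of AP-1, EGR, NR4A and KLF relatives, feedback genes and other early targets. Of 54 such genes compared, 31 (57.4%) had r above 0.5 with the mean of the 9, against 12.6% of all genes, and their median r was 0.59 against -0.07. They made up 6 of the 20 closest genes, among them DUSP1, CTGF, CYR61, IER5 and CSRNP1, while they are 0.594% of the genes compared. Of the 55 tested for spread, 23 exceeded the 90th percentile of all genes. Not all members of these lists did so. SRF, the serum response factor itself, had r = -0.42, and CEBPD, a C/EBP factor of inflammation, -0.49.

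In Hampshire, 4 of 54 of these genes were up-regulated and 9 down-regulated in high loin weight pigs, close to the 12% and 14.6% of all genes. CEBPD rose by 1.68 (SE 0.27, edgeR adjusted p = 0.00504), and HES1, GADD45G and CXCL2 rose by 0.78, 0.61 and 1.5. The nuclear receptor NR4A3 fell by 1.44 (SE 0.34, edgeR adjusted p = 0.0176), TIPARP by 1.47, SPRED1 by 1.36, TRIB1 by 1.28, IER3 by 1.21, PER2 by 1.2, IER5 by 1.12, the anti-apoptotic MCL1 by 0.88 and SRF by 0.60. In Pietrain 0 of 54 were called. The loin weight effect differed between breeds for 1 of 55, against 5.9% of all genes. This was DDIT3, a stress factor of the C/EBP family (difference 2.78, SE 0.68, edgeR adjusted p = 0.0289). DDIT3 ran from 15.5 to 74.7 CPM in Hampshire high and from 9.14 to 15.0 CPM in Hampshire low pigs. In Pietrain it ran from 8.30 to 14.4 CPM in high and from 16.2 to 37.8 CPM in low pigs. Between breeds 9 of 55 were higher and 9 lower in Hampshire, where 25.4% and 26.9% of all genes were.

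Among the kinases and factors upstream of the early genes, 8 of 20 were down-regulated and 0 up-regulated in the Hampshire high pigs, where 14.6% of all genes were lower. In the JNK branch MAPK9 fell by 1.73, MAPK8 fell by 1.47, MAP2K7 fell by 0.98 and MAP2K4 fell by 0.55. Among the others, RPS6KA3 fell by 0.67, MAPK14 fell by 0.57 and the ETS factor ELK4 fell by 2.14. ELK4 was near the floor, with 0.0681 to 0.364 CPM in the high and 0.631 to 1.12 CPM in the low pigs. The JNK kinases phosphorylate JUN. Levels of kinase mRNA do not measure kinase activity. Longer genes had lower log2 fold changes in this comparison (rank correlation -0.386). The part of gene length in these falls was not tested. Hampshire DEGs numbered 1224 to 3049 when single pigs were left out, against 3256 with all of them. In Pietrain 0 of 20 were called. The difference between breeds passed for 2 of 20, against 5.9% of all genes. These were MAPK9 (-1.60, SE 0.30, edgeR adjusted p = 0.00990) and MAP2K7 (-1.30, SE 0.32, edgeR adjusted p = 0.0289).

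Partners of single members were also followed. In Hampshire 26.6% of all genes were called, made up of 12% of all genes called higher and 14.6% called lower. Of the 8 tested genes of the MYC network, MGA fell by 2.20 (SE 0.38, edgeR adjusted p = 0.00627) and MXD3 rose by 1.03 (SE 0.25, 0.0191) in Hampshire high pigs. MGA was at low levels, with 0.320 to 0.545 CPM in the high and 1.78 to 2.48 CPM in the low pigs. Of 14 genes of mRNA decay beside ZFP36, 4 were called, near the share of all genes, and CNOT1, CNOT7 and XRN1 fell by 0.55, 0.76 and 1.16, and PARN rose by 0.65. Of 3 relatives of BTG2, 1 was called, and TOB1 fell by 0.65. Of 11 genes listed for the glucocorticoid response, a slower stress response, 1 was called higher and 3 lower. ANGPTL4 rose by 2.34, while FOXO3 and ZBTB16 fell by 1.70 and 1.37. The receptor's own gene NR3C1, which is also on this list, fell by 1.59. In Pietrain 0 genes of these lists were called.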

How the data were processed

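Muscle RNA of 13 pigs was sequenced by the authors (TruSeq libraries that do not mark strand, 101 cycles, 4 technical repetitions per sample). The authors deposited whole-number raw counts per Ensembl gene on Sscrofa10.2 for each breed, and the submitters' processing notes name FastQC, STAR, RSEM and DESeq2 without versions. From their comparison tables, which hold DESeq2 fold changes and p-values, only identifiers, symbols and positions were read. Symbols came from these tables (7066) or from a gene names table (6102), and 183 of 250 list symbols matched.

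Counts were tested with edgeR 4.0.16 in R 4.3.3 (glmQLFit, then glmQLFTest, after filterByExpr and TMM), for each breed by itself as in the study, and over all pigs for the difference and the breeds. DEGs had a Benjamini-Hochberg adjusted p under 0.05 over all genes and a fold of at least 1.2 (no fold for the difference). Levels, spread, exact permutation tests and correlations used TMM-scaled CPM with a pseudocount of 0.5. Permutation tests were two-sided, with 100000 resamples over 13 pigs and all pairings within a breed. Tests were checked on simulated counts. Alternatives were DESeq2 1.42.0, its size factors, other filters, a gene length offset, 1 fit, no fold threshold, leaving out each pig and, added later, a replicate block.

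Named were all 9 genes, list genes called in any comparison (a part is given as counts), and the 5 genes with a symbol and a mean of at least 1 CPM most like the 9. A few results that these rules would name are not reported here. Genes and lists were chosen with earlier results of these data known.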

Additional observations from a re-analysis of the deposited data

Results flagged for a closer look

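JUNB in Pietrain high pigs had a sample far from the others. Pig 6 had 9.67 CPM and the other 3 had 3.20 to 3.64 CPM, a gap of 0.933 of the group's range in CPM and of 0.890 on the log2 scale. Each of the 9 genes was examined in this way in this group, the only one with 4 pigs, and chance flags about 1 in 20 groups.

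The identifier ENSSSCG00000028056, which the gene names table also calls ZFP36 and which entered no comparison, had 0 counts in 12 pigs and 41 counts in Pietrain high pig 6.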

How the results depend on the processing

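Within a breed no paired analysis was possible because the groups compared share fewer than 2 replicate numbers. The breeds share 4 numbers, which are those of different animals, and the deviations of same-numbered pigs from their group means had correlations of 0.249, 0.104, -0.0545 and -0.0580, so the numbers do not pair the pigs. A replicate block over all pigs, added after seeing the data, left 1 residual degree of freedom. With it, 4342 genes and 6 of the 9 were called between breeds and 16 genes and 2 of the 9 for the difference. FOS (2.25) and EGR1 (0.83) reversed between breeds, and JUN (2.72), MYC (0.42) and BTG2 (4.83) for the difference. Of the 8 pigs with a shared number, 2 correlated best with their own number in the other breed. DESeq2, its size factors and no fold threshold kept the count of the 9 genes called in each comparison they were run on, although DESeq2 gave only 7 of the 9 an adjusted p in Pietrain. In Hampshire that count was 3 with no filter, 2 with at least 10 counts, 3 with the length offset, 0 with all pigs in 1 fit, and 0 to 3 leaving out pigs. Hampshire DEGs numbered 1224 to 3049 leaving out pigs (1224 without low pig 3, 2091 without high pig 9, 1760 without high pig 10). DESeq2 called 1 Pietrain gene and 1242 for the difference, the length offset 483 and leaving out pigs 379 to 1052. Between breeds, 1 of the 9 was called with the length offset, which was neither JUNB nor IER2, and 0 to 4 leaving out pigs (0 without Hampshire low pig 2). The median r of pairs was 0.27 without Pietrain low pig 3 and high pig 7.

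Log2 fold changes that reversed in Hampshire were FOS (-0.32), JUNB (-0.34) and ZFP36 (-0.0611) with the length offset and JUNB (-0.0171) with at least 10 counts, and between breeds JUN (-0.18) with the offset. The cause was not tested. Leaving out pigs gave ranges in Hampshire of -0.47 to 0.83 for FOS, -0.21 to 0.50 for JUNB and -0.0737 to 0.56 for ZFP36. In Pietrain they were -3.13 to 2.06 for FOS, -0.97 to 0.24 for JUN, -1.16 to 1.28 for JUNB, -2.37 to 1.62 for EGR1, -1.02 to 0.0838 for MYC, -1.09 to 0.34 for IER2, -0.55 to 1.72 for BTG2 and -0.65 to 0.58 for ZFP36. For the difference they were -1.94 to 3.18 for FOS, -0.93 to 0.26 for JUN, -1.20 to 1.18 for JUNB, -0.46 to 3.45 for EGR1, -0.74 to 0.38 for MYC and -0.26 to 0.95 for ZFP36. Between breeds they were -0.55 to 1.84 for FOS, -1.14 to 0.22 for EGR1 and -0.24 to 0.40 for ZFP36. Of the other values of single genes, 473 kept direction and side of the threshold, 20 newly passed it and 11 no longer did. IER2 rests on few counts per pig.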
